A study of Mus musculus with 9 samples.

Results

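Transcripts of the exocrine pancreas were abundant in 3 of 6 mouse liver libraries and nearly absent from the other 3, and the data below set these libraries side by side. The 6 are the wild type (WT) and knock-in (KI) libraries of a study of SND1, a protein of nuclease-like repeats with a Tudor domain that reads methylated arginine. They were divided by the normalized count of Amy2a5, a pancreatic amylase. A library with at least 10000 was put in the high group and one under 1000 in the low group. The high libraries were WT_3, KI_1 and KI_3, and the low libraries were WT_1, WT_2 and KI_2, the number being that of the sample title. The division thus took 1 of 3 WT and 2 of 3 KI livers into the high group. It used 6 of the 9 libraries of the series, since the 3 knockout (KO) libraries were left out. The members closest to the thresholds were KI_1, with 69867, and WT_1, with 21.1.

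WT animals carried unmodified Snd1, KI animals carried Snd1 with a mutated Tudor domain, and KO animals lacked Snd1. The titles name the FVB strain for every library. All were males aged 60 days on normal chow and a 12-hour light cycle, and their tissues were collected together. The residue changed in the KI allele, the litters and the dissection of the liver are not given in the sources used here. Total RNA was extracted with TRIzol and made into stranded mRNA libraries. The cell type label reads hepatocyte while the tissue label reads liver, so any cell of the piece of tissue can contribute. Hepatocyte markers were at high levels in every library, with Alb (albumin) taking 2.76% to 6.41% of the normalized counts. In bulk tissue, fewer cells of a type and less RNA per cell cannot be told apart.

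Acinar cells of the pancreas make digestive enzymes, mostly as inactive precursors, store them in zymogen granules and release them into ducts that drain to the gut. Their genes are switched on by the PTF1 complex, in which Ptf1a and Rbpjl take part, together with Nr5a2 and Bhlha15 (also called Mist1). In rodents the pancreas is a diffuse gland that lies along the duodenum and spleen, near the liver, and islets of endocrine cells are scattered through it. Hepatocytes share Nr5a2 and Foxa2 with acinar cells but are not known for secreting amylase 2, trypsin or lipase.

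The starts of 4 of the 5 defining genes are shown because these genes moved together across the libraries. Each line gives the 250 bases before the transcription start in RefSeq, on the strand of the gene, from build GRCm38.p6. The RefSeq start of Amy2a5 lies 48 bases from the nearest GENCODE start, so its sequence is not shown. For the other 4 the distance was at most 4 bases. Capitals mark CACCTG and TTTCCC, the E-box and TC box bound by PTF1, and CAGCTG, another E-box, each searched on both strands. Ctrb1 (chymotrypsinogen B1) lies at chr8:111691011-111691260 on the reverse strand, Pnlip (pancreatic lipase) at chr19:58670115-58670364 on the forward strand, Cpb1 (carboxypeptidase B1) at chr3:20275734-20275983 on the reverse strand, and Cela2a (elastase 2A) at chr4:141826006-141826255 on the reverse strand.
Ctrb1: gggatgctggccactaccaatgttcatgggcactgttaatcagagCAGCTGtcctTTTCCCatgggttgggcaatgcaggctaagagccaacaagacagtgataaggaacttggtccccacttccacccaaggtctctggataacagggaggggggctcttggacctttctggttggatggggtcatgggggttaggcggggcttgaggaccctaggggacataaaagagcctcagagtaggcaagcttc
Pnlip: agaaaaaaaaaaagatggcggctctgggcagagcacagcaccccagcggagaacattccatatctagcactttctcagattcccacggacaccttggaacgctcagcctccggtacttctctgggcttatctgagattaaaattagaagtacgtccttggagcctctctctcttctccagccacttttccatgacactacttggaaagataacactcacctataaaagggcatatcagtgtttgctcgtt
Cpb1: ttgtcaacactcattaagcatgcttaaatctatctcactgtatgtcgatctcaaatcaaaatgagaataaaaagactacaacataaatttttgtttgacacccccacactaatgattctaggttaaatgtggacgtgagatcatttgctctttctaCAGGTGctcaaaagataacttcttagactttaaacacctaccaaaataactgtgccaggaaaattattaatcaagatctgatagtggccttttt
Cela2a: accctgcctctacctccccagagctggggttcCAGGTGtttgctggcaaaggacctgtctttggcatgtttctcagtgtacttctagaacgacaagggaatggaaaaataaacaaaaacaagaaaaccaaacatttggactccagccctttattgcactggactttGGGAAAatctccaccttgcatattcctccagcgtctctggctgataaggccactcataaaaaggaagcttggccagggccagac

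In Ctrb1 the marked letters are a CAGCTG and a TTTCCC, 205 and 195 bases before the start. Cpb1 has a single match, CACCTG on the opposite strand (printed CAGGTG) at 94 bases. Cela2a has CACCTG at 218 bases and TTTCCC at 84 bases, both on the opposite strand (printed CAGGTG and GGGAAA). Pnlip has none of the 3 in this window. Promoter entries matched 27 of the 32 acinar enzyme genes on the list used here, and 17 of the 27 held CACCTG (63.0%), 9 held TTTCCC (33.3%) and 5 held CAGCTG (18.5%). Among all 32851 promoters of the same length, 17.2% held CACCTG, 21.9% held TTTCCC and 13.0% held CAGCTG. Copies of a gene share much of their sequence, so these matches are not independent, and a match is a description of letters and not a binding site.

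The 5 defining transcripts were at 0 to 21.1 normalized counts in the low livers and at 22543 to 924072 in the high livers. Amy2a5 (chr3:113247178-113258837 in GRCm38, reverse strand) had 200914 in WT_3, 69867 in KI_1 and 924072 in KI_3, against 21.1 in WT_1, 0 in WT_2 and 3.65 in KI_2. Ctrb1 had 77915, 40023 and 511216 in the same 3 high libraries and 16.3, 3.85 and 0 in the low ones. These 2 genes put the livers in the same order, KI_3 above WT_3 above KI_1, with no overlap between the groups. Pnlip had 69635, 35587 and 420019 against 3.84, 0 and 0. Cpb1 had 70500, 22838 and 320476 and no read in any low library. Against the limit of 3 reads per library that a count of 0 allows, Cpb1 was at least 28300-fold higher in the high livers. Cela2a had 47239, 22543 and 293164 against 12.5, 13.5 and 14.6. Since Amy2a5 chose the libraries, the differences between the groups are given here as descriptions without tests. The KO livers, which the rule did not use, had 4.06, 2.03 and 0 counts of Amy2a5 and 47.7, 59.8 and 57.0 of Cela2a, so all 3 lay with the low livers for Amy2a5 and each lay above every low liver for Cela2a.

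**Figure D1:**
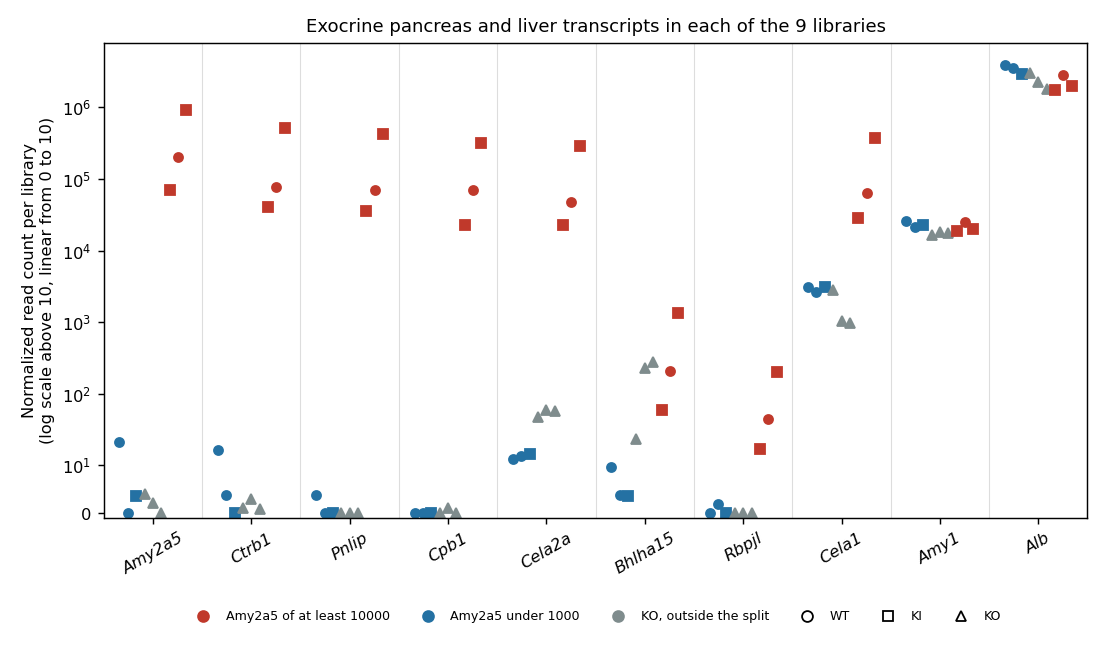
Normalized read counts of 10 transcripts (y axis, logarithmic above 10 and linear from 0 to 10) in each of the 9 libraries, with 1 point per library, coloured by the division and shaped by genotype. Amy2a5, Ctrb1, Pnlip, Cpb1 and Cela2a lie at 22543 or more in the 3 high libraries and under 60 in the other 6, while Amy1 and Alb stay within the same decade in all 9.

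The rest of the digestive enzymes had the same split. Of 32 acinar enzyme genes, 30 had a mean of at least 10 over the 9 libraries, and in all 30 the high livers lay above the low ones by at least 2-fold, which is the rule for a gene called higher here. Over all 15238 genes tested, 2.10% were called higher. The libraries were chosen on an enzyme of this list, so nothing is read from the count. The median difference was 13.69 on the log2(value + 1) scale, 13.02 within WT and 14.37 within KI, against -0.01 for all genes. It was 13.56 with the 8 enzymes at 0 in every low liver set at their lower bound. The other 2 enzyme genes, Gm5771 and Prss3, were under that filter, with at most 35.4 counts in any library.

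Among the proteases, Prss2 (a trypsinogen) had 54733 in WT_3, 20474 in KI_1 and 270326 in KI_3 against at most 1.92 in the low livers. Cpa1 (carboxypeptidase A1) had 44333, 21948 and 276643 against at most 14.4. The lipase cofactor Clps had 17782, 5461 and 85303 against at most 3.84, and Cel, which cleaves cholesterol esters, had 36078, 15540 and 211312 against at most 13.4. Every one of these kept the order of the defining genes. Cela1, an elastase gene that liver transcribes as well, was the exception at the low end. It had 3088, 2655 and 3097 counts in the low livers and 63414, 28626 and 374044 in the high ones, a log2 difference of 4.90.

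Per kilobase of exon, Ctrb1 was the highest of the pancreatic transcripts compared in this way in all 3 high livers, at 88741 in WT_3, 45585 in KI_1 and 582250 in KI_3. Alb reached 1202721, 754712 and 838695 per kilobase in the same livers. The level of this single chymotrypsinogen transcript was thus 0.69 of that of albumin in KI_3, 0.07 in WT_3 and 0.06 in KI_1.

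Together, 54 acinar secretory genes took 2.27% of all normalized counts in WT_3, 0.899% in KI_1 and 11.0% in KI_3. The same genes took 0.00717% to 0.00923% in the low livers and 0.00407% to 0.0086% in the KO livers. The makeup of the excess over the low livers was taken over these genes together with Amy2a1 and Amy2-ps1, the copies of the Amy2 group that are on neither list. Amylase 2 transcripts made up 51.4% of it in WT_3, 44.4% in KI_1 and 48.9% in KI_3. Proteases made up 33.9%, 38.4% and 35.4%, and lipases with their cofactor 10.7%, 12.0% and 10.9%. The secretory genes outside the enzyme list, Pdia2 and Aqp8 among them, made up 3.0%, 4.1% and 3.9%. The secretory share differed 12.2-fold between KI_3 and KI_1, and the share of a class by at most 7.0 percentage points.

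The amylase part carries an uncertainty from near-identical copies. The transcripts of Amy2a2, Amy2a3 and Amy2a4 were 98.5% identical to that of Amy2a5 over 3713 aligned bases. In every low and KO library the 4 genes had the same value as each other, 21.1 in WT_1, so the same reads may be counted for several copies. How reads that fit several copies were counted is not given in the sources used here. With Amy2a5 standing for the whole Amy2 group, the secretory share came to 1.48% in WT_3, 0.624% in KI_1 and 7.12% in KI_3. The makeup by class was not recomputed in this way. Its amylase part may thus be too large, its other parts too small, and the rank of amylase above the proteases is not settled. Amy1, the neighbouring amylase gene that liver and salivary gland use, is 89.5% identical to Amy2a5 over 1589 aligned bases. It had 25709, 21460 and 22578 counts in the low livers and 24975, 18734 and 20283 in the high ones, so the groups overlapped.

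Granule proteins and other secretory genes of acinar cells followed the enzymes. Of 22 tested, 17 were called higher, where 2.10% of all genes were. The 13 genes at 0 in all low livers passed the filter only through libraries outside the low group, so nothing is read from the count. The median log2 difference was 8.44, or 7.13 with these 13 genes set at their bound. Gp2, the main glycoprotein of the granule membrane, had 7343 in WT_3, 4122 in KI_1 and 40416 in KI_3. Zg16, another granule protein, had 8514, 3478 and 50001, and Sycn (syncollin) had 5866, 1839 and 29747. The trypsin inhibitor Spink1 had 775, 289 and 5051. In the low livers Gp2 had no read, and the other 3 had at most 3.84 counts. Cckar, the receptor through which cholecystokinin drives enzyme release, had 366, 180 and 2083 in the high livers and none in the low ones. The 5 secretory genes not called were Aqp8, Erp27, Rap1gap, Reg3a and Reg3g. Aqp8, a water channel that hepatocytes have too, had 2078, 248 and 360 in the high livers and 884 to 2492 in the low ones.

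Of the transcription factors of acinar cells, Bhlha15, which sets up the secretory apparatus, had 210 in WT_3, 60.1 in KI_1 and 1353 in KI_3 against 3.65 to 9.59 in the low livers. Rbpjl, a PTF1 subunit found in mature acinar cells, had 44.1, 17.2 and 203 against at most 1.93. Ptf1a itself was under the filter, with 28.0 counts in WT_3, 42.6 in KI_3 and 0 in KI_1 and in the low livers. Bhlha15 and Rbpjl were the only ones called of 9 factors tested, where 2.10% of all genes were called higher. Rbpjl, with no read in the KO livers, passed the filter only through the high livers, so nothing is read from the count. Foxa2, which hepatocytes share, had 1065, 798 and 614 in the high livers and 543 to 656 in the low ones, so the groups overlapped. Nr5a2 was lower without overlap, at 3240, 2425 and 2539 against 3284 to 4136, and overlapped once the libraries were rescaled, either by median of ratios or to equal sums outside the pancreas lists. Bhlha15 was not tied to the pancreatic enzymes in every liver, since the KO libraries had 23.3, 230.9 and 282 counts of it with Amy2a5 at or under 4.06.

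Most pancreatic transcripts kept a common ratio between the high livers. For each gene the mean of the 3 low livers was subtracted, and genes were kept when the remainder was at least 10 in every high liver and the lowest high liver was at least 3 times the highest low one. The remainder of Amy2a5 was 4.60 times as large in KI_3 as in WT_3 and 2.88 times as large in WT_3 as in KI_1. Of 48 other genes of the pancreas lists that met the rule, 40 stayed within 2-fold of both ratios, and 45 had the order KI_3, WT_3, KI_1. The 40 include Amy2a2, Amy2a3, Amy2a4 and Amy2b, near-identical copies that may share reads with Amy2a5, so their likeness to it is not independent. The medians were 5.82 and 2.34. Cpb1, with 4.55 and 3.09, and Prss2, with 4.94 and 2.67, were the closest to Amy2a5. Pnlip had 6.03 and 1.96, and Ctrb1 had 6.56 and 1.95. These ratios compare single libraries and have no replicate check.

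The widest departures were Reg2, Reg3b and Reg1, members of the Reg family of secreted lectin-like proteins that acinar cells make under stress and during regeneration. Reg2 had 18.0 counts in WT_3, 196 in KI_1 and 3347 in KI_3, so KI_1 stood above WT_3. Reg3b had 44.1, 141 and 881 in the same livers. Reg1 had 7827, 7902 and 102489, so WT_3 and KI_1 were level although Amy2a5 differed 2.88-fold between them. No read of these 3 genes was found in a low liver. Outside the division, the KO livers had 2.03, 425 and 796 counts of Reg3b and 0, 64.8 and 104 of Reg3g, with no Reg1. The trypsinogen gene Try5, at 32789, 26476 and 237093, and Dmbt1, at 5462, 4574 and 40997, were also relatively higher in KI_1, while the water channel gene Aqp12 was relatively lower there, at 177, 32.2 and 830.

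**Figure D2:**
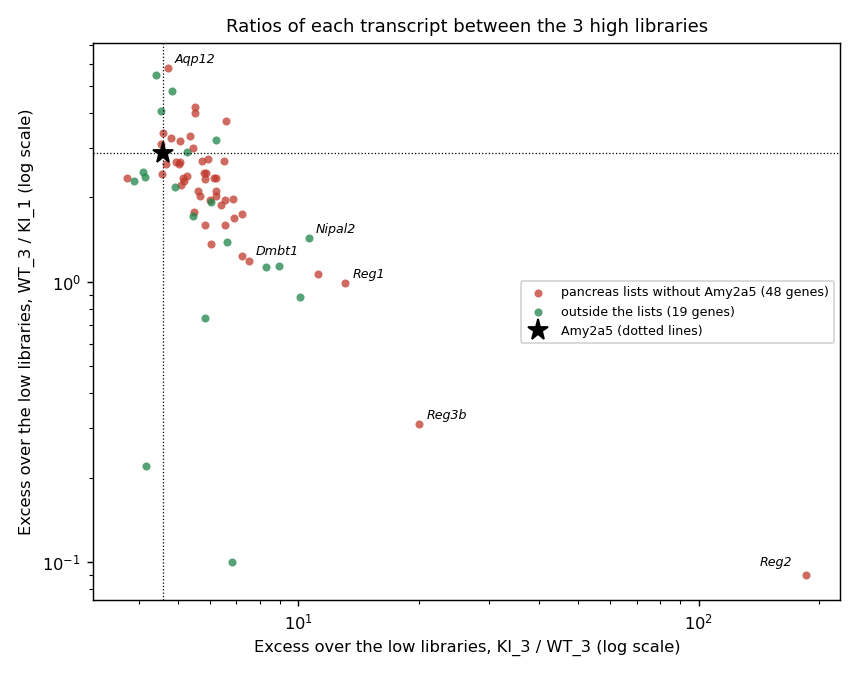
Ratio of the excess over the low libraries between KI_3 and WT_3 (x axis) and between WT_3 and KI_1 (y axis), both logarithmic, with 1 point per gene. The star and dotted lines mark Amy2a5 at 4.60 and 2.88. Of the 48 other genes of the pancreas lists 40 lie within 2-fold of it on both axes, near-identical Amy2 copies among them. Reg2 and Reg3b lie far to the lower right.

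Islet hormones were present in 2 of the 3 high livers only. Ins2, an insulin gene, had 56.1 counts in WT_3, 0 in KI_1 and 1060 in KI_3. Ins1 had 11.0, 0 and 462, and Iapp (amylin) had 8.01, 0 and 136. Gcg (glucagon) was found in KI_3 alone, at 75.1. None of the 4 genes had a read in any low or KO liver. Insulin transcript was 18.9 times as high in KI_3 as in WT_3 for Ins2 and 41.9 times for Ins1, against 4.60 for Amy2a5. At the Amy2a5 ratio, KI_1 would have had 19.5 counts of Ins2, and the limit that its count of 0 allows is 3.22. For Ins1 and Iapp the corresponding values were 3.83 and 2.79, near that limit. Of 21 endocrine genes 11 were in the table and 3 passed the filter on low values, each only through its count in KI_3. None of the 3 was called because KI_1 was at 0. Absence from KI_1 was not confined to islet genes. The acinar factor gene Ptf1a was at 0 there too, where the Amy2a5 ratio gives 9.75, and at 42.6 in KI_3, where it gives 129. Pancreatic transcripts in KI_1 thus came with acinar enzyme markers and with neither insulin nor Ptf1a transcript detected at this depth.

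**Figure D3:**
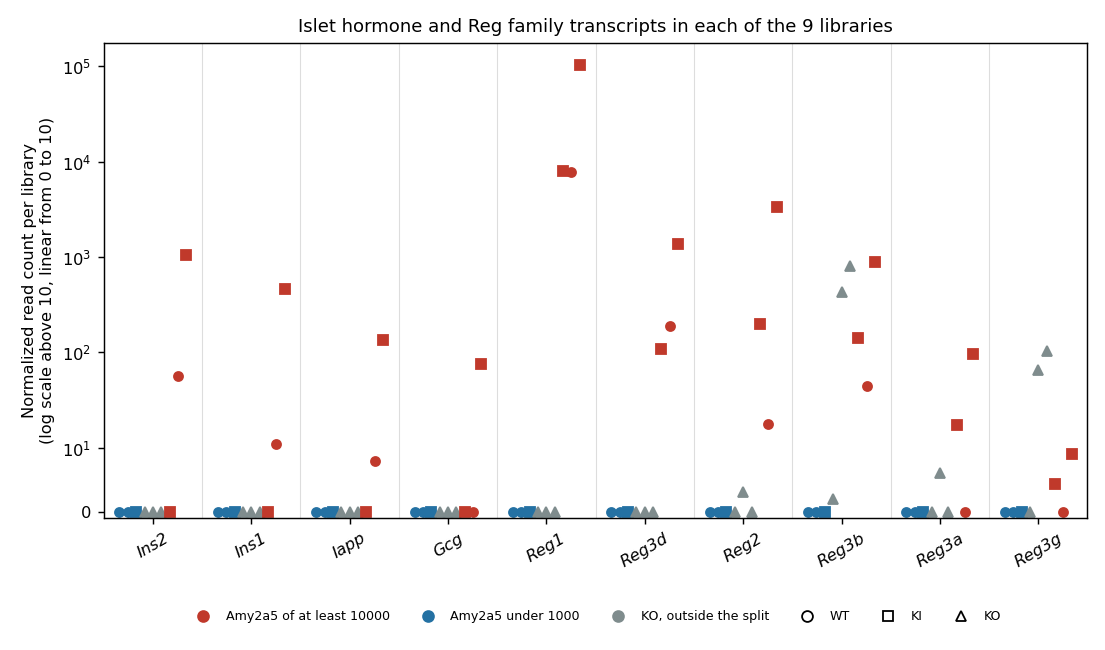
Normalized read counts of 4 islet hormone genes and 6 Reg family genes (y axis, logarithmic above 10 and linear from 0 to 10) in the 9 libraries, with 1 point per library, coloured by the division and shaped by genotype. Ins2, Ins1 and Iapp are at 0 in KI_1, and Reg3b and Reg3g reach 796 and 104 in KO libraries with almost no Amy2a5.

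Markers of other tissues near the pancreas were also looked up. None of 13 duct and cholangiocyte genes tested was called, where 2.10% of all genes were called higher, and nothing is read from a count this small. Krt19, a keratin of duct cells, had 15.0 in WT_3, 74.1 in KI_1 and 74.0 in KI_3 against 24.7 to 35.5 in the low livers, so WT_3 lay below every low liver. The mucin gene Muc1 had 51.1, 17.2 and 300.4 against 13.4 to 19.2. In the fat list Adipoq and Plin1, which define adipocytes, had at most 4.82 counts in any WT or KI library. None was called of 4 gut, 1 adrenal or kidney and 12 lymphoid or spleen genes tested, and these numbers are as small. The median log2 difference was -0.09 for the duct list, -0.24 for gut, -0.24 for fat, 0.52 for lymphoid cells and spleen and 0.37 for mesothelium, smooth muscle and nerve, against -0.01 for all genes. The duct median turned to 0.14 without KI_2. Summed over the list, duct markers took 0.0415% to 0.044% of the counts in the high livers and 0.0431% to 0.0479% in the low ones. Aqp1, Krt8 and Krt18, each at 4473 counts or more in every WT and KI library, made up most of this sum. It thus says little of the scarcer duct markers.

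Macrophage markers leaned upwards. All 14 Kupffer cell and macrophage genes had a positive difference, with a median of 0.62. In 5 of them the groups did not overlap, and over all genes 7.50% were higher without overlap. C1qa, a complement component made by macrophages, had 2324, 2751 and 3084 counts in the high livers (WT_3, KI_1, KI_3) and 2299, 1139 and 1642 in the low ones (WT_1, WT_2, KI_2). C1qb had 2207, 2423 and 2798 against 2087, 1164 and 1210. WT_1 thus lay close to the lowest high liver for both genes. Only Cd14 of this list was called, at 129, 281 and 156 against 65.5 to 109. Summed over the list, the share of the counts was 0.0497% to 0.058% in the high livers and 0.0291% to 0.0527% in the low ones, which overlap. Among 19 interferon and antigen presentation genes, 5 were higher without overlap and 1, H2-K1, was lower. The 5 became 3 with equal sums outside the pancreas lists and 7 with median-of-ratios scaling. H2-Ab1 was the only one called, at 325, 260 and 374 against 258, 88.6 and 152. Cd74, the invariant chain of class II molecules, had 6177, 6258 and 6552 against 5920, 2325 and 3370.

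Over all 15238 genes 320 were called higher (2.10%), and 270 of these lay outside the pancreas lists and the Amy2 group. For 157 of the 270 KI_3 was the highest of the high livers, and 77 had the order KI_3, WT_3, KI_1. Only 18 met the rule of the ratio comparison above, and 43 were predicted or unnamed genes. Amy2a1, the amylase copy on neither list, had 54758, 13434 and 249103 counts in WT_3, KI_1 and KI_3. Ggt1, a gamma-glutamyl transferase at the cell surface, had 81.1, 71.9 and 671 against at most 0.96. Ptprn2, a protein of secretory granules, had 72.1, 38.6 and 425 against at most 3.85.

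Several others make amino acids or carry nutrients. Phgdh, the first enzyme of serine synthesis, had 141, 67.6 and 676 in the high livers against 0.96 to 8.63 in the low ones. Asns, which makes asparagine, had 177, 129 and 1010 against 15.4 to 49.1, and Pycr1, of proline synthesis, had 42.1, 32.2 and 239 against 5.78 to 9.13. Aldh1l2, a mitochondrial folate enzyme, had 150.2, 71.9 and 575 against 5.48 to 23.0. Slc38a5, a glutamine transporter, had 77.1, 29.0 and 389 against 0.91 to 6.71, and Slc39a5, a zinc transporter, had 186, 42.9 and 784 against 8.67 to 13.4. Nupr1, a nuclear protein of the stress response, had 753, 94.5 and 1250 against 23.7 to 34.5. Outside the division, the KO livers had 73.02, 142 and 100.4 counts of Pycr1, each above WT_3 and KI_1. Of Aldh1l2 they had 25.35, 101 and 126, so KO_2 and KO_3 lay above KI_1. For Phgdh, Asns, Slc38a5, Slc39a5 and Nupr1 the KO livers lay below every high liver.

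By the same ratio rule, 19 genes outside the lists with a mean of at least 10 could be set beside Amy2a5, and 11 stayed within 2-fold of it. Amy2a1 is among the 11, and reads may be shared between it and Amy2a5. Slc38a5 was the closest named gene, at 5.26 for KI_3 over WT_3 and 2.91 for WT_3 over KI_1. Aldh1l2 had 4.13 and 2.36, Padi2 (a peptidylarginine deiminase) 3.89 and 2.28, Phgdh 4.93 and 2.17, Amy2a1 4.55 and 4.08, Ptprn2 6.05 and 1.92, the calcium-binding protein gene Cabp2 5.44 and 1.71, and Slc39a5 4.40 and 5.45. Pycr1, at 6.64 and 1.39, and Nipal2, of a family of magnesium transporters, at 10.61 and 1.43, lay just beyond 2-fold. Nupr1 and Asns did not enter this comparison because the lowest high liver was under 3 times the highest low liver. The likeness is over 3 libraries and says nothing of the cell in which a gene is transcribed.

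**Figure D4:**
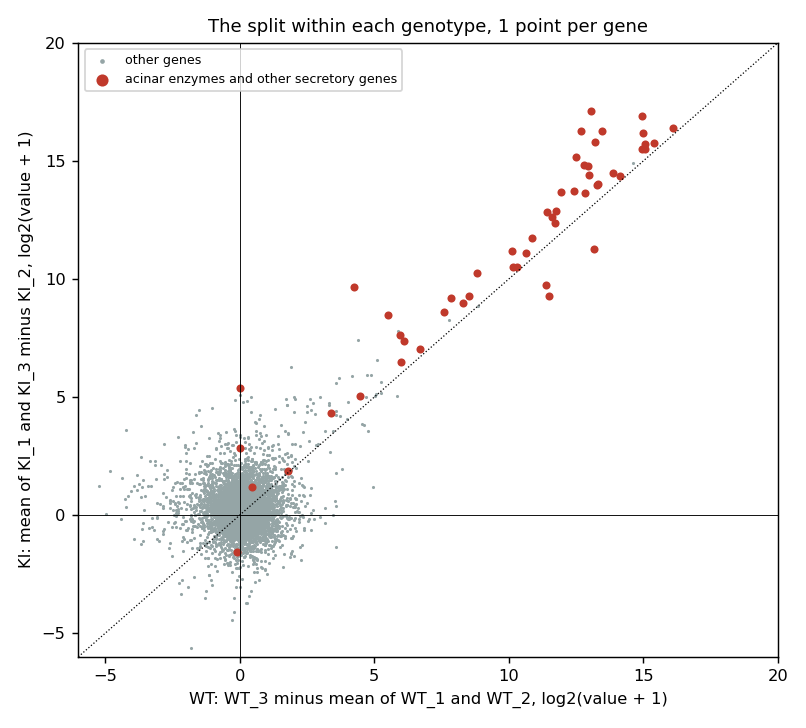
Difference between high and low libraries within WT (x axis) and within KI (y axis) on the log2(value + 1) scale, 1 point per gene over 15238 genes, with acinar secretory genes in red and the line of equal differences dotted. The red points extend to about the same difference in both genotypes, and most other genes lie around 0.

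Genes of liver metabolism were mostly a little lower in the high livers, by well under 2-fold. Over all genes, 1391 were lower without overlap (9.13%), against 1143 higher (7.50%), and 61 were called lower (0.400%). In the list of amino acid breakdown and the urea cycle, 18 of 26 genes were lower without overlap and none higher, with a median log2 difference of -0.39. The median was -0.43 within WT and -0.24 within KI. Ass1, which makes argininosuccinate, had 105216 in WT_3, 146380 in KI_1 and 110988 in KI_3 against 157960 in WT_1, 208154 in WT_2 and 155718 in KI_2. Got1, an aspartate aminotransferase, had 6805, 8441 and 6157 against 12231, 12165 and 9175. Hpd, of tyrosine breakdown, had 74967, 82509 and 78802 against 110774, 118505 and 95188. Cps1, which takes ammonia into the cycle, had 160447, 172328 and 151662 against 194722, 345082 and 232752. Every high liver lay below every low one for each of these 4.

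Transcripts encoded by mitochondrial DNA showed a like shift. Of 13 genes, 9 were lower without overlap, with a median of -0.32, -0.36 within WT and -0.24 within KI. mt-Co1, a subunit of cytochrome oxidase, had 154359, 159745 and 156720 counts in the high livers and 237577, 212278 and 186452 in the low ones. The nuclear genes of oxidative phosphorylation differed less, with 10 of 24 lower without overlap, 1 higher (Cycs) and a median of -0.09.

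Of 19 hepatocyte identity genes, 5 were lower without overlap and none higher, with a median of -0.22, or -0.12 without WT_2 and -0.14 without WT_3. Alb had 2816772, 1767535 and 1964223 counts in the high livers and 3890486, 3593694 and 2919188 in the low ones. Ttr (transthyretin) had 165055, 130115 and 129856 against 222571, 188012 and 179114. With each library rescaled to the same sum over genes outside the pancreas lists, 5 of these 19 genes were again lower without overlap, as were 19 of the 26 of amino acid breakdown and 10 of the 13 mitochondrial ones. With median-of-ratios scaling these numbers were 5, 16 and 9. Over all genes the share was 9.77% with equal sums and 7.51% with median of ratios. In the deposited values Snd1 was lower without overlap as well, as were 9.13% of all genes. It had 6512 in WT_3, 5373 in KI_1 and 5595 in KI_3 against 6951 in WT_1, 8446 in WT_2 and 7941 in KI_2. WT_3 thus lay close to WT_1, and 2 of the 3 high livers were KI.

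In the lipid lists the difference within WT was smaller than that within KI, and this contrast between the genotypes was not tested. Beside each count below stands the share of all genes lower without overlap, 9.13%. Of 24 cholesterol synthesis and uptake genes, 11 were lower without overlap, with a median of -0.51, but the median was 0.04 within WT and -0.87 within KI. It was -0.27 without KI_1 and -0.76 without WT_3. Nsdhl, of late sterol synthesis, had 4224 in WT_3, 2227 in KI_1 and 2645 in KI_3 against 5356, 5571 and 5210 in WT_1, WT_2 and KI_2. Srebf2, the factor that drives these genes, had 2575, 1303 and 1891 against 2638, 2720 and 3079, so WT_3 lay just under the low livers. Averaged over the 24 genes, KI_1 was 0.99 and KI_3 0.43 below the mean of the low livers on the log2 scale, and WT_3 was 0.09 below it. Fatty acid synthesis had 4 of 22 genes lower without overlap and a median of -0.40, -0.12 within WT and -0.49 within KI, and a median of -0.70 without WT_3. Among 28 targets of PPAR-alpha, a factor for fat burning, 10 were lower without overlap, with a median of -0.31, and KI_1 stood furthest down. In the list of glucose production and glycogen, 5 of 22 were lower without overlap, with a median of -0.38. G6pc, which releases glucose, had 13786, 9723 and 11543 against 16429, 21574 and 21623, and Igfbp1, an insulin-repressed gene, had 335, 200 and 476 against 693, 860 and 1362. The part of acinar genes, macrophage genes and the split of genotypes in these lists was not tested.

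**Figure D5:**
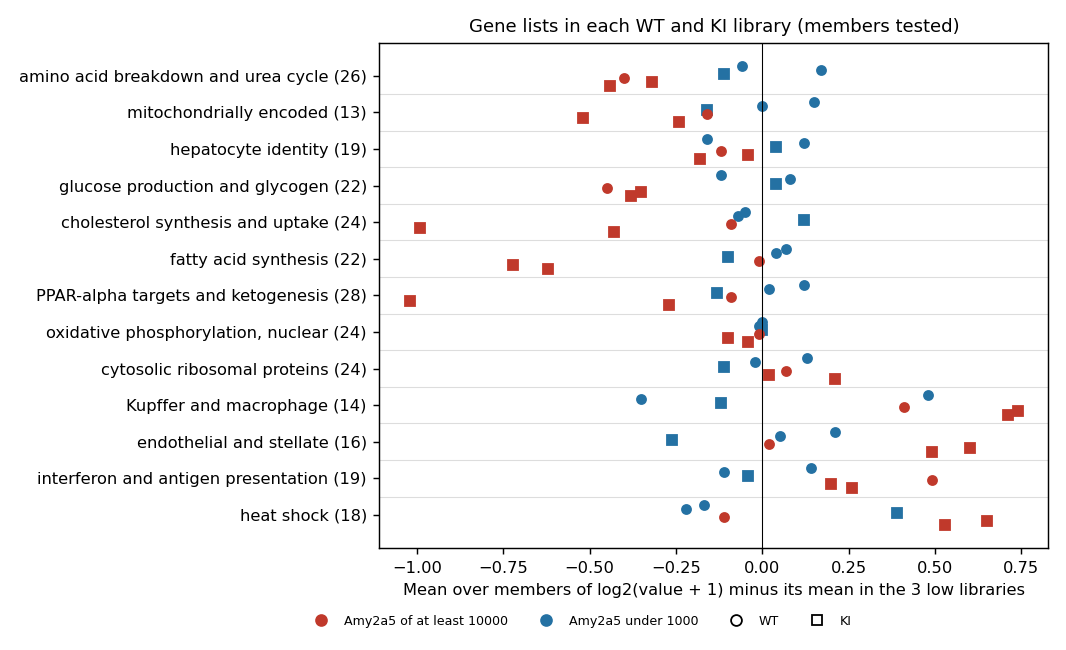
Mean over the members of each gene list of log2(value + 1) minus its mean in the 3 low libraries (x axis), with 1 point per WT or KI library, coloured by the division and shaped by genotype, and the number of members tested in brackets. For amino acid breakdown all 3 high libraries lie between -0.44 and -0.32, while for cholesterol synthesis KI_1 is at -0.99 and WT_3 at -0.09.

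The 10 genes with the largest negative differences among called genes with a mean of at least 50 were mostly of modest level. Cyp2b9, a cytochrome P450 whose level in liver depends on sex, had 82.1 in WT_3, 12.9 in KI_1 and 15.7 in KI_3 against 125, 327 and 173 in WT_1, WT_2 and KI_2. Rgs16, a regulator of G protein signalling that varies with feeding time, had 1037, 854 and 479 against 3075, 2789 and 1564. Rdh16f2, of a family of retinol dehydrogenases, had 664, 332 and 418 against 1377, 1382 and 909. Arl4d, a small GTPase of the Arf family, had 318, 897 and 785 against 1135, 2401 and 1176. Xlr3a and Xlr3b are near-identical X-linked copies, so reads may be shared between them, and they had log2 differences of -2.30 and -2.12. The others were Igfbp1 at -1.55, Col20a1 at -1.26, Raet1d at -1.21 and Spata2l at -1.16. Some of these fell short of 2-fold with a library left out, at -0.81 for Arl4d and -0.87 for Col20a1 without WT_3, -0.93 for Arl4d without WT_2, and -0.96 for Raet1d and -0.89 for Spata2l without KI_3. Of the 61 genes called lower, 31 were lowest in KI_1.

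High livers were spread unevenly over the genotypes, so KI was compared with WT by label both without and with the division as a term. The limma fit used all 9 libraries with 1 mean per genotype. By genotype alone 4 genes of 15238 passed an adjusted p of 0.05 (0.0263%), and 1769 had an unadjusted p under 0.05. The count was 1 with edgeR, 372 with DESeq2 and 28 with limma on the 6 WT and KI libraries alone. Hsph1, a chaperone of the heat shock response, had 3597, 3909 and 3986 counts in WT and 7848, 6359 and 7003 in KI, numbered 1 to 3. It was higher in KI by 0.88 ± 0.11 on the log2 scale (SE, limma adjusted p = 0.0398, higher in 3 of 3 KI libraries than in any WT library). Cyp2c39, a cytochrome P450, had 9850, 8374 and 7119 in WT and 2472, 2889 and 2320 in KI. It was lower in KI, with a log2 difference of -1.72 ± 0.21 (SE, limma adjusted p = 0.0398, lower in 3 of 3). The other 2, both predicted genes, were lower too.

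With the division as a term, no gene passed (0.00%), 1292 had an unadjusted limma p under 0.05, edgeR called 0 and DESeq2 called 185. Hsph1 then differed by 0.83 ± 0.11 and Cyp2c39 by -1.61 ± 0.21 (SE, limma adjusted p = 0.09 for each), so the sizes changed little. Leaving out 1 library brought the count by genotype alone to between 0 and 35. It was 0 without any 1 of the WT livers, without KI_1 or without KI_3, and 33 without KI_2 and 35 without KO_1. Of 52 acinar secretory genes tested, none was called between KI and WT in either fit. The smallest limma adjusted p among them was 0.128 by genotype alone and 0.263 with the division. Amy2a5 had a mean of 66978 ± 115991 in WT and 331314 ± 514531 in KI (SD, n = 3 each), a log2 difference of 5.35 ± 4.74 (SE, limma adjusted p = 0.711). With the division in the fit it was 0.16 ± 1.26 (SE, limma adjusted p = 0.988). The division was made from Amy2a5, and the other acinar genes moved with it. The term thus takes up their differences by construction, and nothing is read from their values in that fit.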

How the data were processed

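RNA from 9 mouse livers, 3 each of WT, KO and KI, was sequenced as stranded mRNA libraries. The authors deposited a signal value, named a normalized count, for each of 19944 genes. The tools that the submitters' processing notes list are TopHat2, Bowtie2 and featureCounts, with the GRCm38 build. The annotation, strand setting and scaling are not given in the sources used here. Deposited values were whole read counts divided by a size factor of 0.8921 to 1.1051. At a tolerance of 0.0051, at least 99.973% of the positive values in each library came back as whole reads. The factor of WT_3, 0.9987, is so near 1 that its recovery is the least certain. The read totals and the edgeR and DESeq2 counts rest on it, the limma fit does not. Totals were 59678412 to 66384374 reads, so for well-expressed genes the spread between animals far exceeds counting error.

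Genes with a mean of at least 10 over the 9 libraries were used. The high and low libraries were compared on log2(value + 1), within each genotype as well, and without a test, because Amy2a5 itself chose them. A gene was called when the groups did not overlap and differed by at least 1 on that scale. KI against WT was fitted with limma 3.58.1 in R 4.3.3 (trend, two-sided, Benjamini-Hochberg over all genes, called under 0.05), with edgeR 4.0.16 and DESeq2 1.42.0 on the recovered reads as alternatives, and the limma step was tested on simulated data. Nothing says whether libraries shared litters, so p-values measure only the spread between these samples.

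The libraries, the 36 gene lists and the rule for named genes were chosen with earlier results of these data known. Named were the 5 defining genes, Snd1, per list at most 4 called members (8 for pancreas lists) and defining markers near 0, and outside the pancreas lists the 10 called genes furthest in each direction and the 10 closest to the Amy2a5 ratio. Members of lists without calls, Amy1 and the other secretory, Reg family and islet genes were named after their values were seen. Some genes are not reported here. Coordinates come from GENCODE M21 and promoter sequences from RefSeq. Python 3.11, Biopython 1.88 and matplotlib 3.10.9 were used. Read counts of the closest replicates, WT_1 and WT_2, gave a chi-square per degree of freedom of 54.1, and no library was taken for a repeat of another.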

Additional observations from a re-analysis of the deposited data

Results flagged for a closer look

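In 2 gene lists the high livers lay on opposite sides of the low ones in the 2 genotypes, and the difference between genotypes was not tested. The list of mesothelium, smooth muscle and nerve markers (8 genes) was lower by 0.58 in WT_3 than in the low WT livers and higher by 0.80 in KI_1 and KI_3 than in KI_2, as a mean over genes on the log2 scale, a gap of 1.38. Msln and Upk3b, markers of the mesothelium that covers abdominal organs, carried much of it. Msln had 24.0 counts in WT_3 against 140.04 and 224 in WT_1 and WT_2, but 354 in KI_1 and 260.1 in KI_3 against 105.02 in KI_2. Upk3b had 40.05 in WT_3 against 119 and 221, but 403 and 444 in KI_1 and KI_3 against 84.9 in KI_2. The second list, endothelial and stellate cell markers (16 genes), was lower by 0.11 in WT_3 and higher by 0.80 in KI_1 and KI_3 in the same comparisons, a gap of 0.91. Lyve1, of sinusoidal endothelium, had 429 in WT_3 against 496 and 491, and 1014 and 721 in KI_1 and KI_3 against 326. The part of these cell types in the other results was not tested.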

How the results depend on the processing

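Genes called higher across the division numbered 320, and 256 to 336 with a pseudocount of 5, either rescaling or the mean of the within-genotype differences. Requiring a mean of at least 50 left 143. The 61 genes called lower became 39 with a pseudocount of 5 and 15 with a mean of at least 50. Leaving out 1 library gave 326 to 654 higher and 91 to 257 lower, the most without WT_3 in each case. The count moved by over 1.5 times also without WT_1 (599 higher) and without KI_1, KI_2 or KI_3 (103, 194 and 129 lower), and fewer libraries overlap less often by construction. Lower genes made up 54.9% of those without overlap, 59.5% with equal sums outside the pancreas lists and 46.9% with median-of-ratios scaling, while the median over all genes moved only between -0.04 and 0.02. The median of the duct list, -0.09, ranged from -0.17 to 0.14 with 1 library left out and turned positive without KI_2. No other list median among 176 values computed, and none of 294 values of named genes, changed sign. These medians were of 16 of the 36 lists. The gut, fat, lymphoid, mesothelium and endothelial lists were not among them. KI against WT by genotype alone, 4 genes, gave 8 with no filter, 28 in the 6 WT and KI libraries, 1 with edgeR and 372 with DESeq2, and 0 to 35 with 1 library left out. With the division as a term, 0 genes, it gave 39 in the 6 libraries, 185 with DESeq2 and 0 to 21 with 1 library left out (21 without KO_1, 3 without KO_3). The causes were not tested. With the replicate number as a block the counts were 3 and 0. Deviations of same-numbered WT and KI libraries correlated at -0.14, 0.53 and 0.57 for numbers 1 to 3, so the numbers were not taken to pair the animals. Genes with a few reads in the low livers are limited by depth there, where 3 reads correspond to 2.74 to 2.89 normalized counts.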
